A study of Mus musculus with 4 samples.

Results

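The peroxiredoxin and thioredoxin genes described here are *Prdx1* to *Prdx6*, which encode the 6 peroxiredoxins of the mouse, *Txn1* and *Txn2*, which encode its thioredoxins of the cytosol and of the mitochondria, and *Txnrd1*, which encodes the cytosolic thioredoxin reductase. They were taken by name from a table of 21957 genes. The choice of these 9 used none of their values, but earlier results of these data were known by then. The table was measured in mouse oocytes cultured with or without tubastatin A (TubA), a compound designed to block the deacetylase HDAC6. The question was how TubA changes the transcripts of an oocyte in meiosis. There were 4 libraries, each the only one of its condition.

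Control GV-stage oocytes, which still hold the germinal vesicle (the nucleus of the oocyte before meiosis resumes), were collected at 0 h of culture. Control MII-stage oocytes, which stop at the second metaphase, were cultured for 12 h without TubA. TubA-10 and TubA-20 oocytes were cultured for 12 h with the inhibitor at 10 and 20 μM by their titles, whereas the treatment field of TubA-10 reads 20 μM and that of TubA-20 reads 11 μM. The names TubA-10 and TubA-20 follow the titles. All oocytes came from B6D2F1 females (C57BL/6 crossed with DBA) aged 6 to 8 weeks that had been primed with gonadotropin, and they were stripped of cumulus cells and pooled, and M16 was the culture medium. The control MII oocytes were those that had extruded a polar body, and no such selection is stated for the TubA groups. In MII/GV, time in culture and meiotic stage cannot be told apart, nor can these and TubA in TubA-10/GV and TubA-20/GV, and the TubA oocytes may differ from the MII oocytes in stage as well as in treatment.

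Peroxiredoxins are abundant thiol peroxidases that reduce hydrogen peroxide with a reactive cysteine. Most are then reduced by thioredoxin, which thioredoxin reductase, a selenoprotein, returns to its active form with electrons from NADPH. Fully grown oocytes transcribe little or nothing, so their transcript levels move mainly through storage, tail length and decay, and hydrogen peroxide is a by-product of the mitochondria on which the maturing oocyte depends. PRDX1 and PRDX2 are known substrates of HDAC6, which removes acetyl groups from them. The values here are of transcripts, so neither acetylation nor peroxidase activity was measured.

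Values are FPKM (fragments scaled to transcript length and to the mapped fragments of the library) and are therefore comparable between genes as well as relative to the other transcripts of a library, so they do not carry the amount of RNA in a pool. Each pool was of 100 oocytes, and fewer intact oocytes and less RNA per oocyte cannot be told apart. Differences are log2 ratios of FPKM + 1, and the counts below are of genes past 2-fold, a log2 of 1, in either direction. All 9 genes had at least 5 FPKM in at least 1 library and so belong to the 7897 genes that reached this minimum, over which the share past 2-fold is given for each comparison. With 1 library per condition no difference could be set against a spread between replicates, so no value has an error or a p-value and no order of levels could be tested. By an estimate from the smallest steps between low values, TubA-20 had 0.893 times the depth of GV, TubA-10 1.68 times and MII 1.64 times. The read totals given by the study, which are not used here, place TubA-20 above GV in depth rather than below it.

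The oocyte identity of the libraries was checked with 10 markers, among them the zona pellucida genes, *Gdf9* and *Bmp15*. All 10 were above 0 in each library, with a summed level between 15780.1 FPKM in GV and 21797 FPKM in TubA-20. Single markers went both ways in TubA-20/GV, with log2 ratios of −1.08 for *Zp1*, −1.36 for *Zp2*, −1.33 for *Zp3* and −2.77 for *Figla*, and of 1.11 for *Gdf9* and 1.20 for *Oosp1*. Of 10 cumulus and granulosa markers 2 to 5 were at 0, and *Foxl2* was at 0 in every library. The sum of the 10 ranged from 8.17 FPKM in TubA-10 to 15.4 FPKM in GV, where *Inha* alone gave 7.50 FPKM. *Inha* gave only 0.314 FPKM in MII, 0.310 FPKM in TubA-10 and 0.239 FPKM in TubA-20. *Ptx3* and *Tnfaip6* went the other way, from 0 in GV to 1.19 and 1.57 FPKM in TubA-20. *Cyp19a1* gave 6.14 FPKM in GV and was the highest of the 10 in each cultured library. It measured 8.60 FPKM in MII, 7.42 FPKM in TubA-10 and 10.3 FPKM in TubA-20. Of 8 blood markers at least 6 were at 0 in each library, including the haemoglobins, and the sum was at most 2.30 FPKM. The part of these other cells in the values below was not tested.

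The sequences upstream of 3 of the genes are shown first, because *Prdx1* and *Txnrd1* were the members with higher levels in MII and TubA-20 than in GV, and *Prdx2* was the most abundant member with lower levels. Each window runs from 250 bases before to 50 bases after a transcription start annotated in RefSeq (GRCm38.p6), 8 of the 9 genes had an entry, with 10 windows in all, and *Prdx6* had none. Capitals mark a match on either strand to TGACNNNGC, the core of the antioxidant response element, to which the transcription factor NRF2 binds. The *Prdx1* window is chr4:116685349-116685648 on the plus strand, the *Prdx2* window is chr8:84969372-84969671 on the plus strand, and the *Txnrd1* window, the only match among the 3 starts of that gene, is chr10:82858956-82859255 on the plus strand. 
Prdx1: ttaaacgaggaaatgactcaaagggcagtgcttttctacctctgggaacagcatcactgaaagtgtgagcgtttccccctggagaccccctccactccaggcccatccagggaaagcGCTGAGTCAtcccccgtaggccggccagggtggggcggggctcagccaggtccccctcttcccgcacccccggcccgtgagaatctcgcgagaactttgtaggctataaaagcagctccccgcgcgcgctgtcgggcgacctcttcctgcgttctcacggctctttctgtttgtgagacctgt
Prdx2: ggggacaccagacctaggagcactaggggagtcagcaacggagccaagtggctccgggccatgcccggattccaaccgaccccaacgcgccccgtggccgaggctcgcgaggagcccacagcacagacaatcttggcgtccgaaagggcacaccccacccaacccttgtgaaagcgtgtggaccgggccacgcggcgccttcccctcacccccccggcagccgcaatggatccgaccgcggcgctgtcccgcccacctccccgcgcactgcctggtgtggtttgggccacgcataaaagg
Txnrd1: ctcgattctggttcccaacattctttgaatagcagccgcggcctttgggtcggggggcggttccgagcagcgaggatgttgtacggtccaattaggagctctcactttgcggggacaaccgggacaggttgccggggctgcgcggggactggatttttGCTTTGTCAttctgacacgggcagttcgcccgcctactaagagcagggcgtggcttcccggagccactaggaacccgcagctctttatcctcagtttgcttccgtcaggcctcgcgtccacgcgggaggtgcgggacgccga

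The match in *Prdx1* reads GCTGAGTCA, or TGACTCAGC on the other strand, and begins at position -133 from the start. The match in *Txnrd1* reads GCTTTGTCA, or TGACAAAGC on the other strand, and begins at -92. None of the windows of *Prdx2*, *Prdx3*, *Prdx4*, *Prdx5*, *Txn1* and *Txn2* held these letters. The motif is common. It occurred in 17.4% of the 6338 genes that reached 5 FPKM and had an entry, and in 12.4% of all 32851 windows, beside 2 of the 8 members and 3 of 7 listed NRF2 regulators and targets. The match is a description of letters and no evidence of binding. The windows shown were picked by the levels of their genes, and any tie between motif and level was not tested.

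The ends of the transcripts were read as well, since oocytes lengthen or shorten the poly(A) tails of stored mRNAs through the cytoplasmic polyadenylation element (CPE), and the libraries were made from polyadenylated RNA. In the principal GENCODE transcript of each gene, a CPE (TTTTAT or TTTTAAT, on the strand of the transcript) lay within the last 100 bases of *Txnrd1* and of none of the other 8 genes, against 20.6% of 7775 genes with a 3′ UTR of at least 10 bases. A poly(A) signal (AATAAA or ATTAAA) lay in the last 50 bases of 8 of the 9, all but *Prdx6*, against 79.0% of those genes. Stretches of 30 bases are shown for the abundant cytosolic pair and for both elements of *Txnrd1*, with the CPE or the poly(A) signal in capitals. They lie on the plus strand of GRCm38 at chr4:116700791-116700820, chr8:84974781-84974810, chr10:82897645-82897674 and chr10:82897680-82897709. 
Prdx1, poly(A) signal: tctgctctgcaaAATAAAtaggacttggcc
Prdx2, poly(A) signal: acattggatgggAATAAAaactaaagtcaa
Txnrd1, CPE: aattccatgtatTTTTATtacaatttttct
Txnrd1, poly(A) signal: aaaatgtgaaccAATAAAagatgttgatgc

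The CPE of *Txnrd1* began 56 bases and its poly(A) signal 21 bases from the end of the transcript. The 3′ UTRs ranged from 60 bases in *Prdx4* and 140 bases in *Prdx5* to 1667 bases in *Txnrd1*, with a median of 857 bases over the genes above. Tail lengths were not measured.

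Among the cytosolic peroxiredoxins, *Prdx1* and *Prdx2* were by far the most abundant members, and they differed from GV in opposite directions in each cultured library. *Prdx1* (chr4:116685544-116700822, plus strand) encodes the typical 2-Cys enzyme that also acts as a chaperone and signalling protein, and it measured 983 FPKM in GV, 1277 FPKM in MII, 1313 FPKM in TubA-10 and 2210 FPKM in TubA-20. MII and TubA-10 lay close to each other and above GV, and TubA-20 stood above all 3. The log2 ratio to GV was 0.38 in MII and 0.42 in TubA-10. It was 1.17 in TubA-20, where 87.6% of the 7897 genes had a smaller value, and 0.94, short of 2-fold, when the libraries were scaled to a median change of 0 against GV. Against MII, *Prdx1* was 1.73-fold higher in TubA-20 by the ratio of FPKM (log2 0.79), which did not pass 2-fold, and 98.2% of the genes had a smaller value in that comparison. By FPKM, *Prdx1* was the 76th gene of GV, the 44th of MII, the 47th of TubA-10 and the 27th of TubA-20.

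*Prdx2* (chr8:84969587-84974834, plus strand) encodes the closely related enzyme best known as a major protein of the red cell. It measured 1379.7 FPKM in GV, 588 FPKM in MII, 772 FPKM in TubA-10 and 647 FPKM in TubA-20. GV was high and the 3 cultured libraries were low, with a log2 ratio to GV of −1.09 in TubA-20, −0.84 in TubA-10 and −1.23 in MII. The MII value was −0.9996 with the libraries scaled to equal *Gapdh*. Between the cultured libraries *Prdx2* differed little, by a log2 of 0.39 for TubA-10 and 0.14 for TubA-20 against MII. It was the 45th gene of GV by FPKM, and the 144th of MII, the 95th of TubA-10 and the 148th of TubA-20. The gene overlaps *Rnaseh2a* and *Junb* on the opposite strand, the library type was strand-specific, and *Rnaseh2a* was lower in the cultured libraries too, at 51.9 FPKM in GV and 3.13 FPKM in TubA-20. *Prdx1* has 3 and *Prdx2* 1 annotated pseudogene of at least 90% identity over 200 bases or more, none of them listed in the table, so fragments could be shared with copies and these levels are uncertain to that extent.

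**Figure D1:**
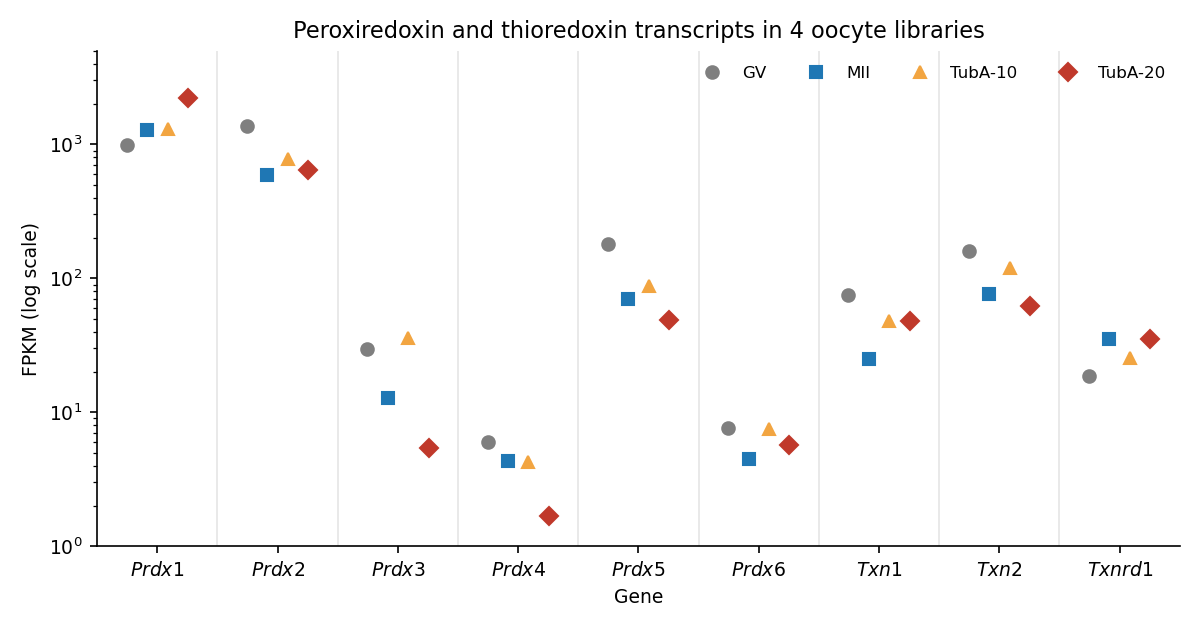
FPKM (log axis) of each of the 9 genes in the single GV, MII, TubA-10 and TubA-20 libraries, 1 point per library with no error, since there were no replicates. *Prdx1* and *Prdx2* lie highest, with *Prdx1* at 2210 FPKM in TubA-20 and *Prdx2* at 1379.7 FPKM in GV, and *Prdx3* spreads most, from 5.46 to 35.6 FPKM.

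Because both genes were read in the same library, their ratio does not depend on how the libraries were scaled. There were 0.712 *Prdx1* transcripts for each *Prdx2* transcript by FPKM in GV. The ratio was 3.42 in TubA-20, 1.70 in TubA-10 and 2.17 in MII. *Prdx2* was thus the leading peroxiredoxin transcript in GV oocytes alone, and *Prdx1* led in each cultured library. The 6 peroxiredoxins together summed to 2587 FPKM in GV, 1957 FPKM in MII, 2219.6 FPKM in TubA-10 and 2918 FPKM in TubA-20. This order depended on scaling, since TubA-20 fell below GV, at 2495 FPKM, with the median change set to 0, and TubA-10 lay above GV, at 2671 FPKM, with equal *Gapdh*. *Prdx1* made up 75.7% of that sum in TubA-20, 59.2% in TubA-10, 65.3% in MII and 38.0% in GV, whereas the share of *Prdx2* was 22.2%, 34.8%, 30.1% and 53.3% in the same order. The 2 genes together gave at least 91.3% of the sum in every library.

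**Figure D2:**
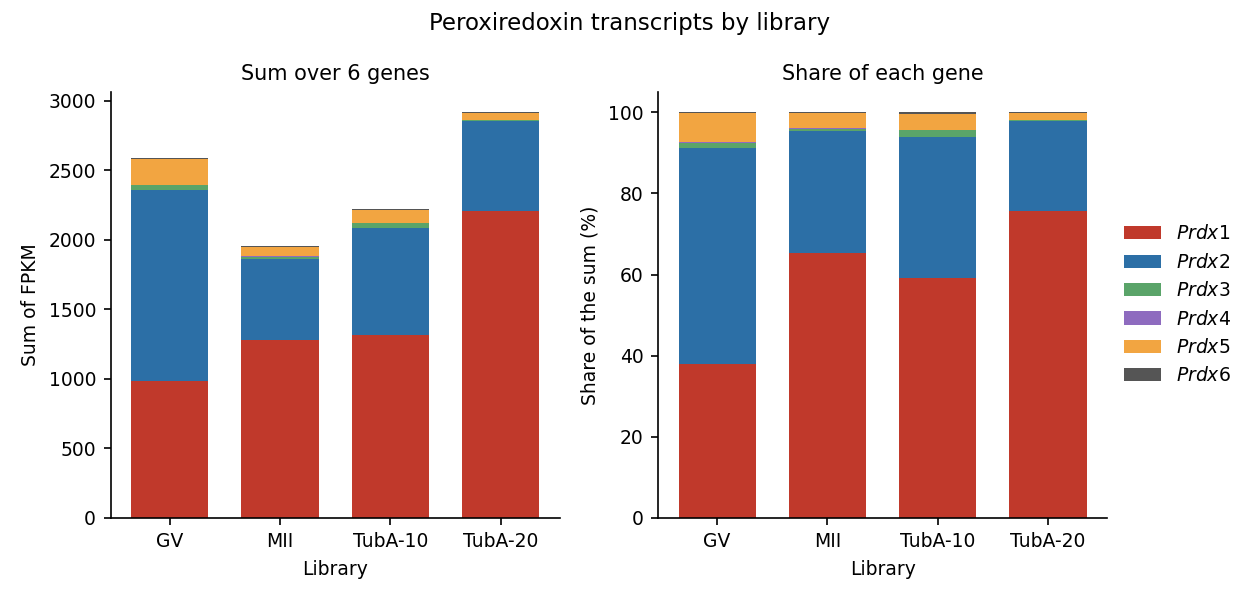
Peroxiredoxin transcripts in each library (1 library per bar, no error), as the stacked sum of FPKM on the left and as the share of each gene in that sum in percent on the right. The *Prdx1* block grows from 38.0% in GV to 75.7% in TubA-20 while the *Prdx2* block shrinks from 53.3% to 22.2%, and the other 4 genes are thin bands.

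The mitochondrial members *Prdx3*, *Prdx5* and *Txn2* were lowest in TubA-20, and *Prdx3* was the member that separated the 2 doses most. *Prdx3* (chr19:60864051-60874556, minus strand) encodes the peroxiredoxin of the mitochondrial matrix. It measured 29.7 FPKM in GV, 12.9 FPKM in MII, 35.6 FPKM in TubA-10 and 5.46 FPKM in TubA-20. TubA-10 was near GV and slightly above it, MII was lower, and TubA-20 was lowest. Its log2 ratio to GV was −2.25 in TubA-20, 0.25 in TubA-10 and −1.14 in MII (−0.93 with equal *Gapdh*). The ratio to MII was −1.11 in TubA-20 but 1.40 in TubA-10. TubA-20 held 6.52-fold less than TubA-10 by the ratio of FPKM, a log2 of −2.50, and 0.241% of the 7897 genes had a lower value in that comparison.

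*Prdx5* (chr19:6906697-6910106, minus strand) encodes an atypical 2-Cys enzyme found in mitochondria, peroxisomes and the cytosol. It measured 181 FPKM in GV, 69.6 FPKM in MII, 87.0 FPKM in TubA-10 and 48.8 FPKM in TubA-20, so every cultured library lay below GV and TubA-20 was lowest. It was the only member past 2-fold from GV in all 3 cultured libraries, with log2 ratios of −1.87 in TubA-20, −1.05 in TubA-10 and −1.37 in MII. With equal *Gapdh* the TubA-10 value was −0.79 and no longer past 2-fold. *Prdx5* overlaps *Trmt112*, which encodes a partner of methyltransferases, on the opposite strand. *Trmt112* was lowest in GV and highest in TubA-20, at 181 FPKM in GV, 304 FPKM in MII, 314 FPKM in TubA-10 and 507 FPKM in TubA-20.

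*Txn2* (chr15:77915047-77929006, minus strand) encodes the thioredoxin that reduces PRDX3 in mitochondria. It measured 159 FPKM in GV, 76.3 FPKM in MII, 120.2 FPKM in TubA-10 and 62.2 FPKM in TubA-20. MII and TubA-20 were low, TubA-10 lay between them and GV, and the log2 ratio to GV was −1.34 in TubA-20, −0.40 in TubA-10 and −1.05 in MII. The MII value was −0.99 with equal upper quartiles and −0.83 with equal *Gapdh*, short of 2-fold. The ratio of *Prdx3* to *Prdx5* within a library was 0.409 in TubA-10, 0.112 in TubA-20, 0.185 in MII and 0.164 in GV, so *Prdx3* stood apart from the other mitochondrial peroxiredoxin mainly in TubA-10. *Txnrd2*, the mitochondrial thioredoxin reductase, was low throughout, at 1.75 FPKM in GV, 0.205 FPKM in MII, 1.07 FPKM in TubA-10 and 0.774 FPKM in TubA-20.

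*Prdx4* and *Prdx6* were the least abundant peroxiredoxins. *Prdx4* (chrX:155323918-155340754, minus strand) encodes the enzyme of the endoplasmic reticulum, where it helps to form disulphide bonds, and measured 6.04 FPKM in GV, 4.30 FPKM in MII, 4.29 FPKM in TubA-10 and 1.68 FPKM in TubA-20. MII and TubA-10 were alike, with a log2 difference of −0.00, and TubA-20 was low, with a log2 ratio of −1.39 to GV and −0.98 to MII. At such levels the added 1 FPKM shrinks the difference, and the plain ratio of FPKM put TubA-20 2.56-fold below MII. *Prdx6* (chr1:161240112-161251219, minus strand) encodes the 1-Cys enzyme, which is recycled by glutathione rather than thioredoxin. It measured 7.66 FPKM in GV, 4.51 FPKM in MII, 7.57 FPKM in TubA-10 and 5.68 FPKM in TubA-20, and no pair of libraries differed by 2-fold. *Prdx6b*, a copy with 92.9% identity over 675 bases, was listed at 0 in all 4 libraries. Whether fragments of the 2 genes were separated was not tested.

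The cytosolic thioredoxin and its reductase had opposite orders in the control libraries. *Txn1* (chr4:57943373-57956411, minus strand) measured 75.5 FPKM in GV, 25.0 FPKM in MII, 48.4 FPKM in TubA-10 and 48.0 FPKM in TubA-20. MII was lowest, and both TubA libraries lay between the controls and close to each other, with a log2 difference of −0.01 between the doses. The log2 ratio to GV was −1.56 in MII, the lowest of the 9 genes in that comparison, against −0.64 in TubA-20 and −0.63 in TubA-10. Against MII, *Txn1* was 1.92-fold higher in TubA-20 and 1.94-fold higher in TubA-10 by the ratio of FPKM, just short of 2-fold, and 99.1% and 98.2% of the genes had a smaller log2 ratio in these comparisons, which share the MII library. *Txn1* has 1 annotated pseudogene of at least 90% identity, which is not listed in the table.

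*Txnrd1* (chr10:82833951-82897712, plus strand) measured 18.8 FPKM in GV, 35.4 FPKM in MII, 25.7 FPKM in TubA-10 and 35.5 FPKM in TubA-20. The promoter motif shown above lies at an inner start of the gene. The window at its outermost start, chr10:82833701-82834000, held no match. Which start the oocytes use was not tested, so the motif and the CPE may belong to different transcripts. GV was lowest, MII and TubA-20 were equal to a log2 of 0.00, and TubA-10 lay between, so the log2 ratio to GV was 0.88 in TubA-20, 0.43 in TubA-10 and 0.88 in MII. Within a library, *Txn1* transcripts per *Txnrd1* transcript numbered 4.01 in GV, compared with 1.35 in TubA-20, 1.89 in TubA-10 and 0.706 in MII. The ratio of *Txn1* to *Txn2* was highest in TubA-20 at 0.771, compared with 0.403 in TubA-10, 0.328 in MII and 0.474 in GV, so the mitochondrial thioredoxin transcript was the more abundant in each library.

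Most members were lower in the cultured libraries than in GV. In MII/GV, 0 of the 9 were past 2-fold higher, where 8.1% of all tested genes were, and 5 were past 2-fold lower (*Prdx2*, *Prdx3*, *Prdx5*, *Txn1* and *Txn2*), where 20.2% were. With equal *Gapdh* 2 were lower, and with equal upper quartiles 4. The median log2 ratio was −1.05 over the 9 genes and 0.13 over all tested genes, with 7 of the 9 below 0 against 45.8% of all genes. In TubA-10/GV, 0 were past 2-fold higher (1.79% of all genes) and 1, *Prdx5*, was lower (13.7%), with a median of −0.40 against 0.17. In TubA-20/GV, *Prdx1* was past 2-fold higher (19.9% of all genes) and 5 were lower (*Prdx2*, *Prdx3*, *Prdx4*, *Prdx5* and *Txn2*, 26.4%), with a median of −1.09 against 0.22. These comparisons share the GV library, so their likeness is no independent evidence, and a count of 1 of 9 beside a background of this size says nothing particular about the members. No count or median of the 9 genes was tested against other genes.

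**Figure D3:**
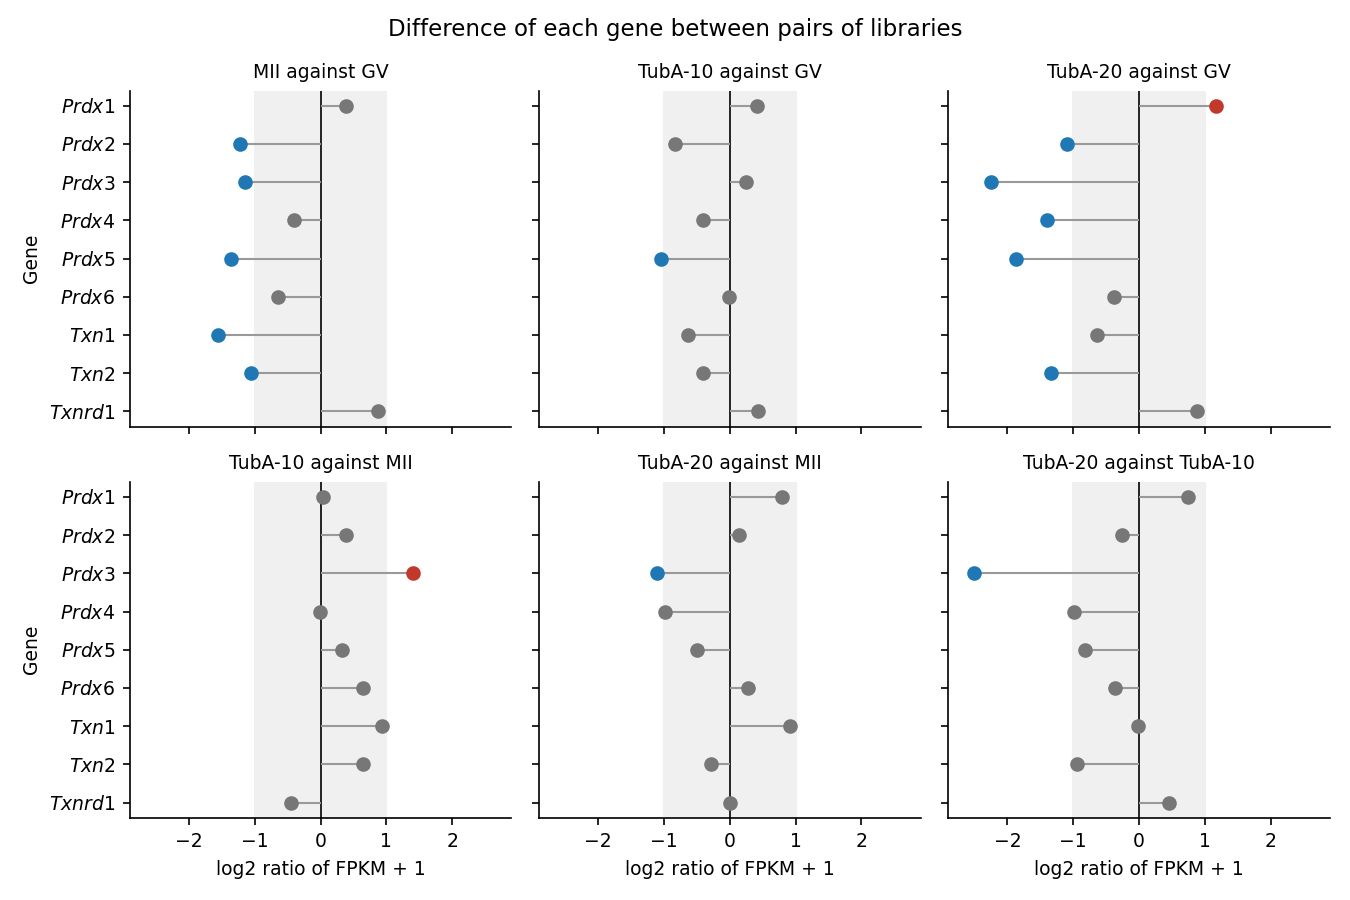
log2 ratio of FPKM + 1 for each of the 9 genes in the 6 pairs of libraries, 1 point per gene, with the span within 2-fold shaded and points past it in red (higher) or blue (lower). *Prdx3* is past 2-fold in all pairs but TubA-10 against GV, and *Prdx1* reaches 1.17 in TubA-20 against GV.

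Set against MII, the control of equal culture time but, by the paper's account, of a later stage than TubA-20, few members were past 2-fold. In TubA-10/MII, *Prdx3* was higher (1.22% of all tested genes were) and 0 members were lower (0.241%). Of the 9, 7 were above 0, against 51.7% of all genes, and the median log2 was 0.39 against 0.02 over all genes. In TubA-20/MII, 0 were higher (0.545%) and *Prdx3* was lower (6.37%), with a median of 0.00 against 0.03. This median of the members fell below 0 under each of the 3 scalings tried, to between −0.151 and −0.0765. The median of all genes fell below 0 there too, to between −0.123 and −0.05. Between the doses, 0 members were higher in TubA-20 than in TubA-10 (1.37%) and *Prdx3* was lower (14.4%). Under other pseudocounts and scalings 2 to 4 members were lower, and the share of all genes was not computed there. Of the 9, 7 were below 0, against 47.1% of all genes, with a median of −0.36 against 0.06. The comparisons with MII share the MII library.

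**Figure D4:**
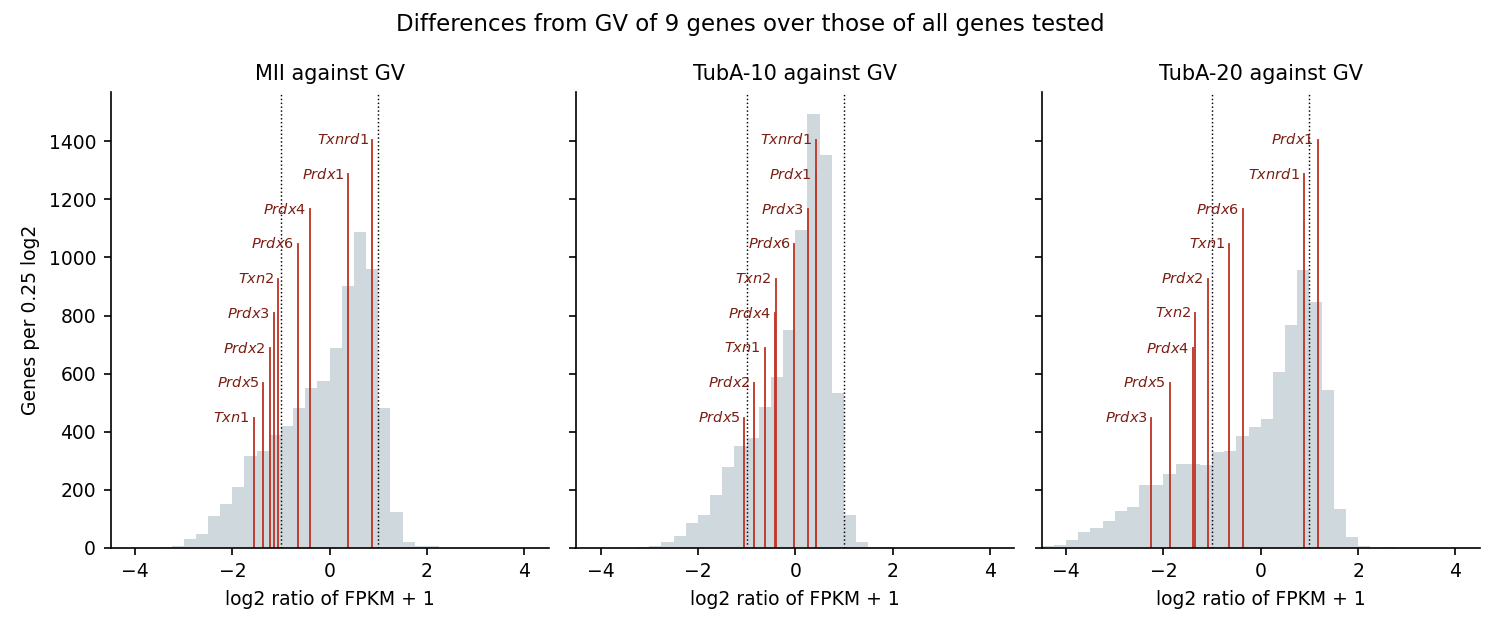
Number of tested genes per 0.25 log2 (grey bars) by their log2 ratio to GV in each cultured library, with a red line at the value of each of the 9 genes (line heights only separate the names) and dotted lines at 2-fold. In TubA-20, *Prdx1* at 1.17 and *Txnrd1* at 0.88 lie to the right, and the other 7 lie below 0.

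In order over the 4 libraries, GV held the highest value for 6 members, TubA-20 for 2 (*Prdx1* and *Txnrd1*) and TubA-10 for 1 (*Prdx3*), whereas GV was highest for 36.3% of all tested genes and TubA-20 for 41.1%. The lowest value was in TubA-20 for 4 members (35.6% of all tested genes), in MII for 3 (10.3%), in GV for 2 (48.4%) and in TubA-10 for 0 (5.72%). TubA-10 lay between GV and MII for 6 of the 9, as it did for 68.8% of all tested genes.

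The genes with patterns nearest to *Prdx1*, *Prdx2* and *Txn1* were found by the distance between log2 values centred on their mean over the 4 libraries, among 6367 genes that reached 10 FPKM. Nearest to *Prdx1* were *Wdr75* (distance 0.0168), *Usf2* (0.0421) and *Eif3i* (0.0437), and 197 genes lay within 0.25. *Wdr75*, a factor of ribosome assembly, measured 184 FPKM in TubA-20, 109 FPKM in TubA-10, 106 FPKM in MII and 82.5 FPKM in GV. Nearest to *Prdx2* were *R3hcc1l* (0.0177), *Nfyc* (0.0523) and *1810022K09Rik* (0.0747), with 62 genes within 0.25. The pattern of *Txn1* was rarer. *Caln1* (0.191) and *Poc1a* (0.247) were the only 2 within 0.25, and *Btf3* (0.292) came next. With 4 points per gene, such nearness describes these libraries alone.

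The regulators of the system were read from a list of 9 further genes, of which only *Txnrd3*, *Txnip* and *Sesn3* reached 5 FPKM. *Txnip*, whose product binds and inhibits thioredoxin, measured 288 FPKM in GV, 444 FPKM in MII, 446 FPKM in TubA-10 and 484 FPKM in TubA-20, and so lay in the opposite order to *Txn1* between the controls. There were 3.82 *Txnip* transcripts per *Txn1* transcript in GV, and 10.1 in TubA-20, 9.21 in TubA-10 and 17.7 in MII. *Txnrd3*, a reductase best known from the testis, differed little, from 14.5 FPKM in MII to 18.7 FPKM in TubA-20. *Srxn1*, which encodes the sulfiredoxin that repairs overoxidised peroxiredoxins, was at most 0.0936 FPKM. The sestrins *Sesn1* and *Sesn2* stayed at or below 1.41 FPKM, and *Sesn3* ranged from 3.34 to 5.02 FPKM. *Nxn*, which encodes nucleoredoxin, measured 4.57 FPKM in GV, 2.59 FPKM in MII, 3.28 FPKM in TubA-10 and 0.410 FPKM in TubA-20, and was the only gene of the list past 2-fold in TubA-20/GV.

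Among the lists around the system, the glutaredoxins stood lowest in TubA-20. These small oxidoreductases use glutathione, and all 4 were past 2-fold lower in TubA-20/GV (26.4% of all tested genes) and 3 of 4 in MII/GV (20.2%), with medians of −1.85 and −1.46. *Glrx5*, which serves iron-sulphur cluster assembly in mitochondria, measured 640.2 FPKM in GV, 226 FPKM in MII, 338 FPKM in TubA-10 and 83.1 FPKM in TubA-20. *Glrx3* and *Glrx* had log2 ratios of −2.07 and −1.498 in TubA-20/GV.

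In the lists that follow, the counts are of all listed genes, also those under 5 FPKM, and stand beside 19.9% higher and 26.4% lower among all tested genes in TubA-20/GV. Of 16 thioredoxin-like genes, of which 11 reached 5 FPKM, 2 were past 2-fold higher and 5 lower in TubA-20/GV. The median in TubA-20/GV was −0.38 over the 16 and −0.86 over the 11, against 0.22 over all tested genes. *Txnl4a*, which encodes a component of the spliceosome, was lowest at −2.70, followed by *Txndc2* at −2.43 and *Txnl4b* at −2.02. Of 14 genes for oxidative folding in the endoplasmic reticulum, where PRDX4 works, 1 was higher and 2 lower in TubA-20/GV, with a median of 0.34. *Pdia4* stood at −1.58, *Erp29* at −1.49 and *Pdia5* at 1.06.

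Of 8 clients of thioredoxin, 1 was higher and 2 lower in TubA-20/GV. *Msra* and *Msrb3*, which encode methionine sulphoxide reductases of opposite stereospecificity, stood at −2.32 and 1.39, and *Rrm2*, a subunit of ribonucleotide reductase, at 0.89. Of 7 genes for the synthesis of selenoproteins such as TXNRD1, 2 were higher and 1 lower. *Secisbp2l* stood at 1.303 and *Sephs2* at 1.14, and *Pstk*, the kinase that acts on seryl-tRNA for selenocysteine, at −2.13. Of 9 NRF2 regulators and targets, 0 were higher and 2 lower (19.9% and 26.4% of all tested genes), with a median of 0.09. Over the 8 that reached 5 FPKM the median was 0.47, against 0.22 over all tested genes, with 5 above 0 and 3 below. *Osgin1* stood at −2.36 and *G6pdx*, the first enzyme of the pentose phosphate pathway and a source of NADPH, at −2.04, while *Slc7a11*, the cystine transporter, stood at 0.96.

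**Figure D5:**
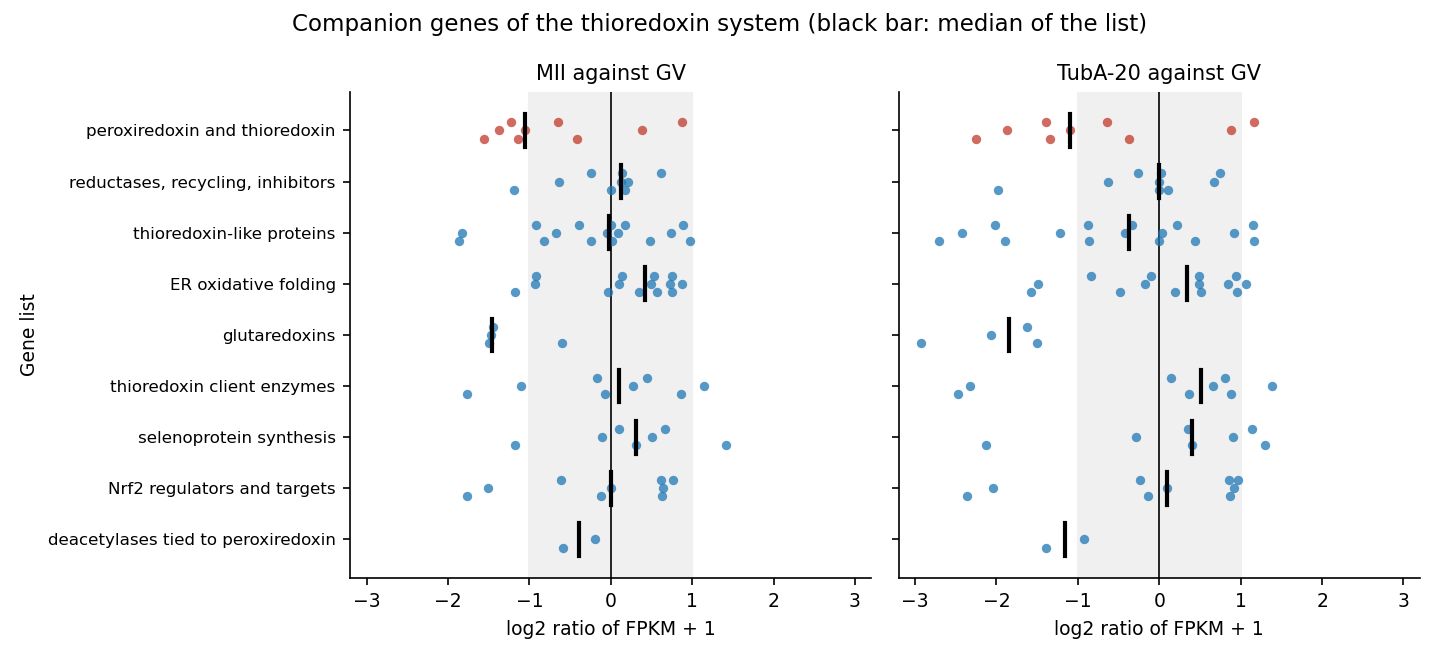
log2 ratio of FPKM + 1 in MII against GV and TubA-20 against GV for each gene (dots) of the peroxiredoxin and thioredoxin genes (red) and of 8 lists around them (blue), with a black bar at the median and the span within 2-fold shaded. The glutaredoxins lie furthest left, with medians of −1.46 and −1.85. In TubA-20 against GV the median is −1.16 for the deacetylases and −1.09 for the peroxiredoxin and thioredoxin genes. The medians of the other lists lie between −0.38 and 0.52 there.

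The deacetylases known to act on peroxiredoxins had low levels. *Hdac6* measured 4.44 FPKM in GV, 3.74 FPKM in MII, 2.998 FPKM in TubA-10 and 1.86 FPKM in TubA-20, and *Sirt2*, which acts on PRDX1, measured 6.77, 4.18, 6.19 and 1.97 FPKM in the same order. TubA-20 was lowest for both, with log2 ratios to GV of −0.93 and −1.39. At such levels the added 1 FPKM shrinks the difference. The *Hdac6* value was past 2-fold, at −1.21 and −1.25, with pseudocounts of 0.1 and 0.01. It was −1.07 with the median change against GV set to 0, but −0.97 with equal upper quartiles and −0.88 with equal *Gapdh*.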

How the data were processed

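RNA-seq was measured in 4 pools of mouse oocytes, 1 library per condition. The authors deposited FPKM values, made by Cufflinks with its setting for strand-specific libraries (mm10), and their processing notes also name STAR 2.5.0 and Cuffdiff 2.2.1. The labels name TRIzol and the paper PicoPure for RNA extraction. Of 21959 Ensembl entries, 21794 matched a symbol and 165 did not, and entries sharing a symbol were added up. Read counts were not analysed here, and depth was estimated only as a ratio between libraries. From the FPKM, log2 ratios with a pseudocount of 1 were computed, with no scaling and no test. The genes and lists were chosen with earlier results of these data known. In lists other than the reductase and deacetylase lists, up to 3 genes with the largest TubA-20/GV change were named among those of at least 10 FPKM in 1 library. The alternatives were pseudocounts of 0.1 and 0.01, 3 scalings, the highest entry of a shared symbol, and other minimum values (at least 1 FPKM, or none). Transcript ends came from GENCODE M21, promoters from RefSeq, and copies from BLAST+ 2.17.0. Scripts (Python 3.11.15, numpy 2.4.6, pandas 2.3.3, scipy 1.17.1, matplotlib 3.10.9) were tested on simulated data.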

Additional observations from a re-analysis of the deposited data

Results flagged for a closer look

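*Prdx3* stood on opposite sides of the MII control at the 2 doses of TubA. Its log2 ratio of FPKM + 1 to MII was −1.11 in TubA-20 but 1.40 in TubA-10, at 12.9 FPKM in MII, 35.6 FPKM in TubA-10 and 5.46 FPKM in TubA-20. The difference between the doses was not tested, since each dose had 1 library, and both ratios share the MII library. Of the 7897 genes compared, 25 were past 2-fold higher in TubA-10 and past 2-fold lower in TubA-20 than in MII, *Prdx3* among them, and 1 gene, *Nupr1*, had the reverse order (named here after its values were seen). The treatment field of the labels gives TubA-10 as 20 μM and TubA-20 as 11 μM, which reverses the order of the doses.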

How the results depend on the processing

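No paired analysis was possible because each condition had 1 library and the groups share fewer than 2 replicate numbers. Of 324 member log2 ratios under the alternatives, 297 stayed on the same side of 2-fold with the same sign, and no ratio past 2-fold changed sign. The 297 include all ratios under the highest entry of a shared symbol, which could not change, since each member had a single entry. With equal *Gapdh*, MII/GV counted 1 member higher (*Txnrd1*) and 2 lower, with a median of −0.83, and TubA-10/GV counted 0 lower. *Prdx2* then stood at −0.9996, *Prdx3* at −0.93 and *Txn2* at −0.83 in MII/GV, and *Prdx5* at −0.79 in TubA-10/GV. Equal upper quartiles moved the MII/GV median to −0.99, the value of *Txn2*, and left 4 members lower. With the median change against GV set to 0, which moves the median of all genes in TubA-20/GV by −0.21, 0 members were higher in TubA-20/GV, since *Prdx1* fell short at 0.94. In TubA-20/MII, 2 members were lower with pseudocounts of 0.1 or 0.01 and with each of the 3 scalings, as *Prdx4* joined *Prdx3*, and the median was −0.0765 with the median set to 0, −0.11 with equal upper quartiles and −0.15 with equal *Gapdh*. In TubA-20 against TubA-10, 2 members were lower with pseudocounts of 0.1 and 0.01 and with the median set to 0, 3 with equal upper quartiles and 4 with equal *Gapdh*. The share of all genes past 2-fold was not computed under other pseudocounts or scalings, so these counts have no background beside them. The median of all genes moved by over 0.1 with equal *Gapdh*, by 0.22 in MII/GV, 0.25 in TubA-10/GV, −0.15 in TubA-20/MII and −0.18 between the doses, with equal upper quartiles by −0.11 in TubA-20/MII, and with the median set to 0 by −0.13 and −0.15 in MII/GV and TubA-10/GV. Without a minimum value, 3.05% of all genes were past 2-fold higher and 8.34% lower in MII/GV, and 7.61% and 11.7% in TubA-20/GV. Single libraries and unknown fragment counts limit every value, most of all those of *Prdx4*, *Prdx6* and the genes under 5 FPKM. The TubA-20 value of *Prdx3*, at 5.46 FPKM, is as low as that of *Prdx6* in that library, at 5.68 FPKM, and is limited likewise.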
